A study of Mus musculus with 6 samples.

Results

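The genes described here encode the conjugating and ester-cleaving enzymes of detoxification in the mouse colon: the cytosolic glutathione transferases (GST), the UDP-glucuronosyltransferases (UGT), the sulfotransferases (SULT) and the carboxylesterases (CES). They were chosen by symbol, as Gst followed by the class letters a, k, m, o, p or t, Ugt1a, Ugt1b, Ugt2a or Ugt2b, Sult1 to Sult6 and Ces1 to Ces5, with at least 60 read counts summed over the 6 samples. Of 20170 genes in the table, 64 had such a symbol and 44 reached 60 counts. These were 18 of 20 GST genes, 5 of 14 UGT genes, 8 of 11 SULT genes and 13 of 19 CES genes. Among the CES genes, Ces2d-ps is annotated as a pseudogene and was counted with the rest. Just under the minimum stood Gsta2 with 52 counts and Ugt2b36 with 40. Just above it stood Sult1e1 with 70 counts and Gsto2 with 136. Ugt2a3 and Ces5a had 0 counts in all samples, where 3 counts correspond to 0.0909 to 0.110 counts per 1000000 counts (CPM). Of the 44 genes, 43 had at least 30 counts in each group, so that almost none had entered through 1 group alone. The exception, Sult1e1, was the 1 gene not tested. Its 70 counts came from restraint replicate 2, with 41, and control replicate 3, with 29.

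Glutathione transferases join the tripeptide glutathione to reactive electrophiles, UDP-glucuronosyltransferases attach glucuronic acid to hydrophobic compounds, and sulfotransferases transfer sulfate from the activated donor PAPS. Carboxylesterases cleave ester bonds in drugs and in lipids such as triacylglycerol. In the colon these enzymes are carried mainly by the surface epithelium, where they act on dietary compounds, bile acids, bacterial metabolites and carcinogens. Many of the genes are known targets of the transcription factors NRF2, which answers oxidative and electrophilic stress, AHR, which binds aromatic ligands, and PXR, which binds drugs and steroids.

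RNA was sequenced from colon tissue of wild-type C57BL/6J mice in a chemical model of colitis-associated colon cancer. Both groups had received the mutagen azoxymethane (AOM, 10 mg/kg, by intraperitoneal injection) and 3 rounds of the irritant dextran sulfate sodium (DSS, 2% in the drinking water). The restraint group (3 samples) also spent 3 to 4 hours a day confined in a ventilated tube of 50 mL, and the control group (3 samples) did not. The labels give no age and do not say whether each sample is a separate mouse, so p-values measure only the spread between these samples, which may in part be technical. All samples had AOM and DSS, and none was from an untreated mouse. Total counts ran from 27160547 to 33017500 a sample. The labels name the cell type as a colorectal cancer cell, but the samples also held RNA of the gut wall. Markers of smooth muscle summed to between 2368 and 7130 CPM, beside markers of colon epithelium at 11010 to 16320 CPM. Control replicates 1 and 3 stood apart. Control replicate 1 had the most RNA of absorptive colonocyte markers (7572 CPM in sum, with the other 5 samples at or under 3389), and control replicate 3 had markers of squamous epithelium at 2989 CPM. In such bulk samples fewer cells of a type and less RNA per cell cannot be told apart. Sample values below are in CPM scaled by TMM (the scaling of edgeR for library composition) and are given in the order of replicates 1, 2 and 3 of each group. Log2 fold changes are restraint minus control, with standard errors (SE).

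Most detoxification genes stood lower in the restraint samples, and none passed the adjusted threshold. Of the 43 tested, 35 had a negative and 8 a positive log2 fold change, with a median of -0.50, where the median over all 15890 genes tested was -0.01. Scaling by library size alone gave 33 negative and 10 positive, with Gstt2 and Ugt2b35 of the other sign, and leaving out control replicates 1 and 3 gave 28 negative and 15 positive. By the quasi-likelihood test of edgeR with Benjamini-Hochberg adjustment, 0 of 43 passed an adjusted p of 0.05 in either direction, as did 0 (0%) of all genes tested, with no adjusted p below 0.191. The count at an unadjusted p under 0.05 was 12 lower (27.9%) and 1 higher (2.33%), where the shares of all genes were 8.82% lower and 7.82% higher. DESeq2, run as an alternative, called 5 of the 43 lower and 0 higher, where it called 2.94% of all genes lower and 2.26% higher. The 5 were Gstt1, Gstm3, Sult4a1, Ces1d and Ces1f. The 3 restraint values all lay below the 3 control values for 10 of the 43 genes (23.3%, against 11.2% of all genes), and above them for 2 (4.65%, against 12.6%). Those 10 were Gstm1, Gstm2, Gstm3, Gsto1, Gstt1, Gstt3, Sult4a1, Ces1d, Ces1e and Ces1f, and the other 2 were Gstm7 and Ces1c. The count at an unadjusted p under 0.05 ranged from 7 lower without restraint replicate 3, where 5.23% of all genes were lower at that p, to 16 without restraint replicate 1, where 9.61% were. Without control replicates 1 and 3 it was 3 lower, where 5.92% of all genes were lower at that p, and the median log2 fold change was -0.29.

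**Figure D1:**
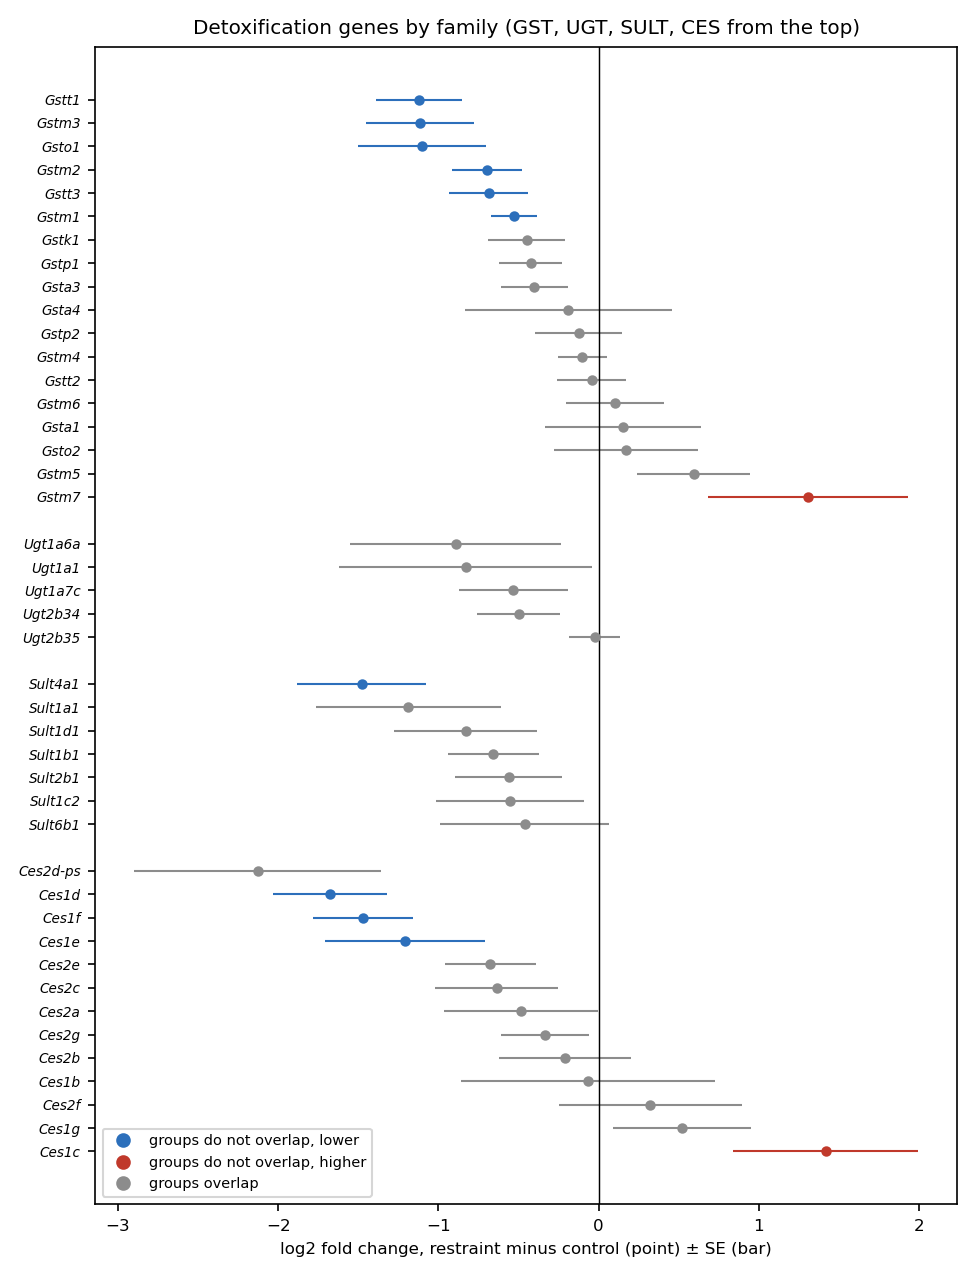
Log2 fold change (restraint minus control) of the 43 tested genes, grouped by family, with bars of 1 SE. Blue points mark genes whose groups do not overlap with restraint lower (10), red points those with restraint higher (2), and grey points overlapping groups; 35 of the 43 points lie left of 0.

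Summed over all 44 genes, the expression was 2201, 1721 and 1637 CPM in the restraint samples. The control samples were at 3269, 2227 and 3057 CPM. The groups did not overlap, but restraint replicate 1 (2201 CPM) lay just under control replicate 2 (2227 CPM). In those samples Gsto1 stood at 280 and 349 CPM, and without it their order is reversed, so the groups overlap. The mean of the restraint group was 0.650 times that of the control group. For the GST genes the sums were 903, 891 and 1001 CPM in the restraint samples, against 1289, 1071 and 1775 CPM in the control samples. The highest of these was control replicate 3. Without Gsto1 the GST sums were 623, 633 and 748 CPM in the restraint samples, against 919, 723 and 798 CPM in the control samples, and the groups overlapped. The UGT genes summed to 334, 239 and 185 CPM in the restraint samples, against 451, 299 and 309 CPM in the control samples. Here restraint replicate 1 lay within the control range. The SULT genes summed to 538, 322 and 211 CPM in the restraint samples, against 925, 477 and 542 CPM in the control samples. For CES genes the sums were 427, 270 and 240 CPM in the restraint samples, against 604, 381 and 430 CPM in the control samples. In the UGT, SULT and CES families restraint replicate 1 was the highest of its group and control replicate 1 the highest of all 6 samples.

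**Figure D2:**
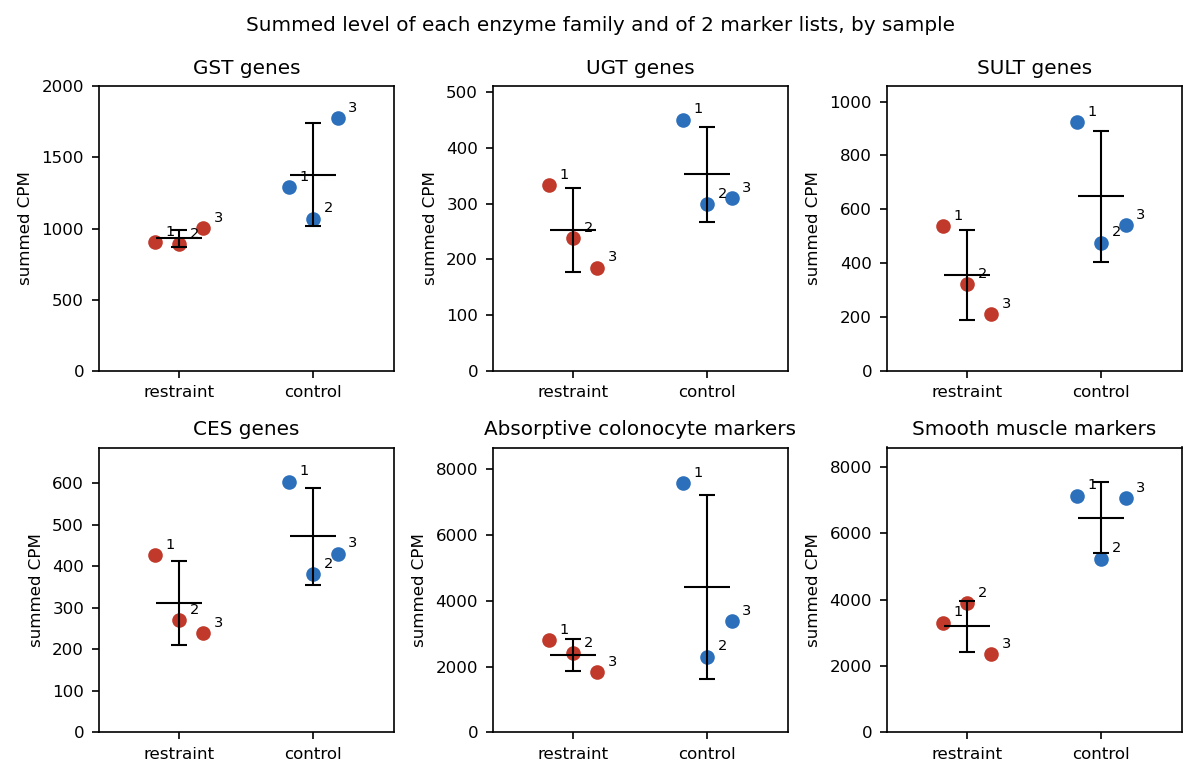
Summed CPM of each enzyme family and of the markers of absorptive colonocytes and smooth muscle, by sample, with restraint left of control; the horizontal lines are group means, the bars 1 SD of 3 samples, and the numbers beside points are replicate numbers. The GST groups do not overlap, and in the UGT, SULT and CES families restraint replicate 1 reaches into the range of the control samples.

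Markers of some other cells differed between the same samples, and others had group means of their sums that were nearly level. Summed markers of colon epithelium, goblet cells, fibroblasts and macrophages had overlapping groups. Their restraint means were 0.919, 1.02, 1.09 and 1.01 times the control means. Single samples were less alike. Goblet cell markers summed to 6162 to 12560 CPM in the restraint samples, against 6164 to 15170 CPM in the control samples. For macrophage markers the ranges were 141 to 365 CPM and 108 to 369 CPM. Of 10 colon epithelium markers, 8 had a negative log2 fold change (median -0.18). The summed markers of absorptive colonocytes were at 1840 to 2813 CPM in the restraint samples, against 2299 to 7572 CPM in the control samples. Of 10 such markers tested 9 had a negative log2 fold change (median -0.72), none with groups apart; Best4 was not among the symbols and Slc51a was near 0. Smooth muscle markers summed to 2368 to 3903 CPM in the restraint samples, against 5233 to 7130 CPM in the control samples. All 7 were lower, 6 of them with no overlap (85.7%, against 11.2% of all genes). B cell markers summed to 7.62 to 174 CPM in the restraint samples, against 79.4 to 479 CPM in the control samples; all 6 were lower (median -1.95), and restraint replicate 3 was the lowest sample for each. Their part in the values of the detoxification genes was not tested. Restraint replicate 3 was the lowest of the 6 samples for 17 of 43 detoxification genes (39.5%, against 23.7% of all genes). Control replicate 1 was the highest for 26 (60.5%, against 26.0% of all genes). These shares were not particular to detoxification genes. They were 80.0% and 90.0% among colon epithelium markers and 70.0% and 90.0% among absorptive colonocyte markers. Among macrophage markers both were 0%. Without control replicate 1, 28 of the 35 negative log2 fold changes of detoxification genes were less so. Of these, 18 shrank by over 1.5 times or became positive.

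**Figure D3:**
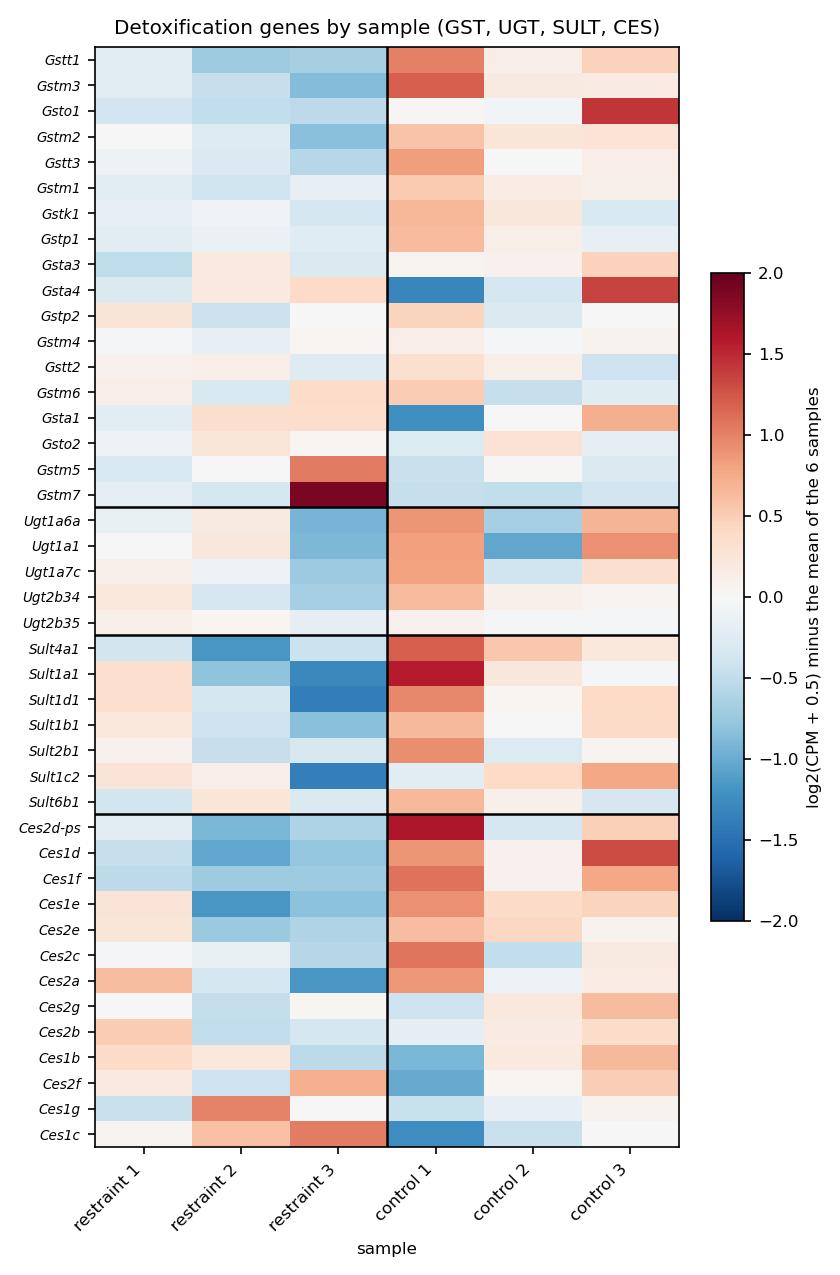
Expression of the 43 tested genes in each sample, as log2(CPM + 0.5) minus its mean over the 6 samples, with restraint samples left of control samples; red is above and blue below the mean. Control replicate 1 is the highest sample for 26 of the 43 genes.

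Among the mu-class glutathione transferases, which act on a broad range of aromatic and epoxide substrates, the direction differed from gene to gene. All 7 Gstm genes were measured, with 4 lower and 3 higher log2 fold changes and a median of -0.10. Gstm3 was at 16.4, 13.7 and 10.2 CPM in the restraint samples, against 44.4, 21.6 and 21.4 CPM in the control samples. Every restraint value was below every control value, and the log2 fold change was -1.12 ± 0.34; the edgeR adjusted p was 0.239 and the DESeq2 adjusted p 0.0332. Without control replicate 1 the log2 fold change was -0.68. Gstm1, the main mu-class enzyme of mouse liver, was at 93.8, 81.9 and 97.2 CPM in the restraint samples, against 156, 120 and 117 CPM in the control samples. The groups did not overlap, with a log2 fold change of -0.53 ± 0.14 (edgeR adjusted p 0.215). Gstm2 was at 58.2, 48.3 and 32.2 CPM in the restraint samples, against 86.0, 68.6 and 69.9 CPM in the control samples. Here too the groups were apart, with a log2 fold change of -0.70 ± 0.22 (edgeR adjusted p 0.250).

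Gstm5 and Gstm7, which lie next to each other at one end of the Gstm cluster on chromosome 3, had the opposite sign. Gstm5 was at 57.7, 71.1 and 149 CPM in the restraint samples, against 52.8, 72.7 and 58.4 CPM in the control samples. The groups overlapped, since only restraint replicate 3 stood above all control samples, and the log2 fold change was 0.59 ± 0.36, and 0.07 without that sample. Gstm7, chosen after its values were seen, was at 18.2, 16.2 and 78.9 CPM in the restraint samples, against 15.0, 14.8 and 16.0 CPM in the control samples. All restraint values were above all control values, but restraint replicate 3 was far above the other 5 samples. The log2 fold change was 1.31 ± 0.62 (edgeR adjusted p 0.340) and 0.17 without that sample. Gstm4 stood within 11.96 to 14.67 CPM in all 6 samples, and Gstm6 within 12.6 to 25.2 CPM. In the order of the genes along the chromosome, Gstm5, Gstm7, Gstm6, Gstm3, Gstm2, Gstm1 and Gstm4, the 3 genes lower without overlap were therefore neighbours. Counts of genes this alike carry some uncertainty: 28.8% of the 50-base stretches of Gstm3 and 18.9% of those of Gstm1 also occur in another gene. How the authors' counting treated reads from such stretches is not given in the sources used here.

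**Figure D4:**
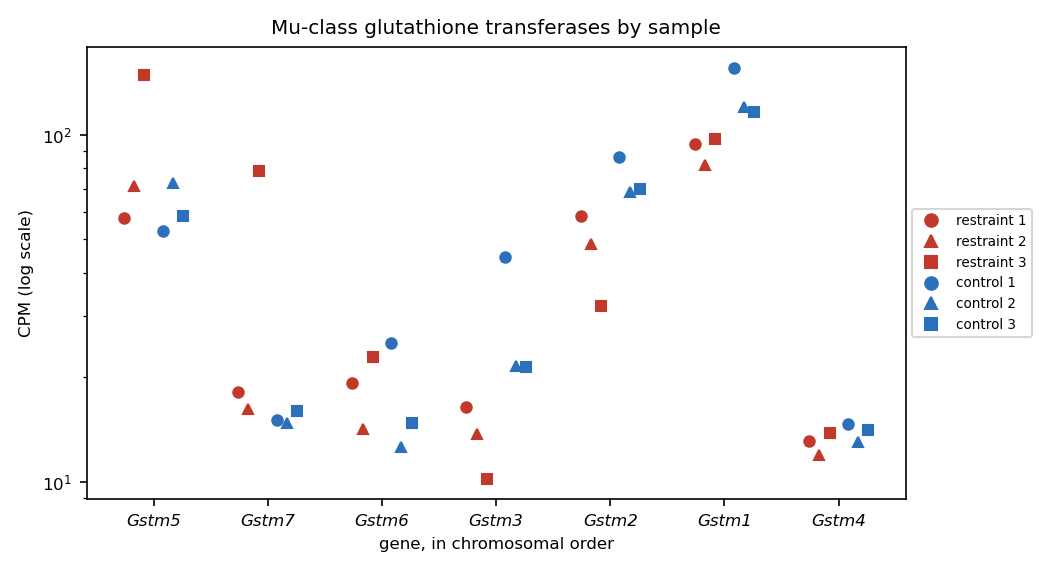
Expression in CPM (log scale) of the 7 Gstm genes by sample, in their order along chromosome 3, with restraint samples in red left of control samples in blue. Gstm3, Gstm2 and Gstm1 have every restraint point below every control point, and restraint replicate 3 stands apart for Gstm5 and Gstm7.

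The 250 bases before the start sites of Gstm3 and Gstm5 are shown because these genes of the same cluster differed in sign (RefSeq, build GRCm38.p6, which is not the build of the counts). Gstm3 is at chr3:107969175-107969424 on the minus strand and Gstm5 at chr3:107895604-107895853 on the plus strand, and each is written 5′ to 3′ in the direction of its gene. Capitals mark the antioxidant response element core TGACNNNGC, bound by NRF2, and the xenobiotic response element core GCGTG, bound by AHR, on either strand.
Gstm3: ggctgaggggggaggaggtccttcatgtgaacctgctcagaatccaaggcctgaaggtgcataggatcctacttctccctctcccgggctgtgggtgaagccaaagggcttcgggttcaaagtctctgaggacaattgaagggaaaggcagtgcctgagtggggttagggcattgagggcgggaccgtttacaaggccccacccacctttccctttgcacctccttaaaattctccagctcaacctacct
Gstm5: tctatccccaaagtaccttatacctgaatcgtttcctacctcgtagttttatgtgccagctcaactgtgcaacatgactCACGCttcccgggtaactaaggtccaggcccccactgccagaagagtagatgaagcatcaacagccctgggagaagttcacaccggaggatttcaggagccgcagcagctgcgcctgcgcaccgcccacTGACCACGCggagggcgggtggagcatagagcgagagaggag
In Gstm5 the match to TGACNNNGC overlaps a match to GCGTG on the opposite strand, and Gstm3 has a match to neither. Gstm7 and Gstm6, whose log2 fold changes were also positive, have a match to neither as well. Of the 44 genes, 37 had an entry. TGACNNNGC was found in 2 of them, Gsta3 and Gstm5, and in 10.1% of all 27025 promoters of the same length. GCGTG was found in 4, Gstm5, Gstm1, Sult1d1 and Gstp1, and in 28.2% of all. The palindrome of the glucocorticoid receptor, the receptor of the stress hormone corticosterone, searched on the same 250 bases, was found in 0 of 37 and in 0.381% of all. A match in these letters describes the sequence only.

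Of the theta class, which acts on small halogenated compounds, all 3 measured genes had a negative log2 fold change, though that of Gstt2 was near 0 and turned positive by library-size scaling, without restraint replicate 3 and without control replicate 1. Gstt1 was at 16.0, 11.3 and 11.6 CPM in the restraint samples, against 38.2, 20.5 and 25.9 CPM in the control samples. The highest restraint value lay below the lowest control value, and the log2 fold change was -1.12 ± 0.27 (edgeR adjusted p 0.195, DESeq2 adjusted p 0.00651). None of its 50-base stretches occurs in another gene. Gstt3 was at 62.1, 54.5 and 44.6 CPM in the restraint samples, against 120, 66.1 and 73.2 CPM in the control samples, again with no overlap and a log2 fold change of -0.69 ± 0.25 (edgeR adjusted p 0.268), which was -0.38 without control replicate 1. Gstt2 ranged from 27.8 to 36.7 CPM in the restraint samples and from 24.8 to 42.0 CPM in the control samples, a log2 fold change of -0.04 ± 0.21.

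Gsto1, an omega-class enzyme that reduces dehydroascorbate and releases glutathione from proteins, was the most abundant GST per transcript length, with 33.8% of the summed deposited FPKM of the family averaged over the samples. It was at 280, 258 and 253 CPM in the restraint samples, against 370, 349 and 977 CPM in the control samples. The groups did not overlap, but control replicate 3 was far above the rest. The log2 fold change of -1.10 ± 0.40 (edgeR adjusted p 0.272) was -0.45 without that sample. The same sample held markers of squamous epithelium at 2989 CPM, against 42.2 to 77.5 CPM in the restraint samples and 5.09 and 24.2 CPM in the other control samples. Their part in the Gsto1 value was not tested. Gsta4, an alpha-class enzyme specialised in the lipid peroxidation product 4-hydroxynonenal, was also highest there. It was at 47.2, 65.9 and 76.6 CPM in the restraint samples, against 23.0, 45.1 and 148 CPM in the control samples, with overlapping groups and a log2 fold change of -0.19 ± 0.65, which was 0.89 without that sample.

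Gstp1, the pi-class enzyme and the second most abundant GST by mean FPKM (14.7% of the family, though Gstm5 was above it in restraint replicate 3 and Gsta4 in control replicate 3), was at 98.2, 104 and 95.9 CPM in the restraint samples, against 175, 123 and 101 CPM in the control samples. The groups overlapped by a narrow margin and the log2 fold change was -0.42 ± 0.20 (edgeR adjusted p 0.326), and -0.18 without control replicate 1. Its counts are uncertain, since 33.7% of its 50-base stretches are shared with another gene, as are 54.3% of those of its copy Gstp2, which had a log2 fold change of -0.12 ± 0.27. Gstk1, the kappa-class enzyme of mitochondria and peroxisomes, was at 37.8, 40.4 and 33.0 CPM in the restraint samples, against 67.7, 49.8 and 34.1 CPM in the control samples, with overlap in control replicate 3. Gsta3, which conjugates aflatoxin epoxide in mice, had a log2 fold change of -0.40 ± 0.21. Gsta1 had one of 0.15 ± 0.49, with 90.5% of its stretches shared with another gene, and Gsto2 was under 1.02 CPM in all samples.

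The UGT family was carried by a single gene. Ugt2b34 made up 84.8% of the summed FPKM of the 5 measured genes on average, and between 82.2% and 88.2% in each sample. It was at 283, 193 and 154 CPM in the restraint samples, against 378, 261 and 252 CPM in the control samples. The control samples were higher on average, restraint replicate 1 lay above control replicates 2 and 3, and the log2 fold change was -0.50 ± 0.26 (edgeR adjusted p 0.362). Ugt1a7c, a phenol-conjugating enzyme of the gut, was at 32.5, 27.4 and 17.8 CPM in the restraint samples, against 52.3, 22.6 and 37.5 CPM in the control samples. The groups overlapped, with a log2 fold change of -0.53 ± 0.34. Ugt1a1, which conjugates bilirubin, and Ugt1a6a, which conjugates small phenols, stayed under 3 CPM in all samples. Ugt1a1 had a log2 fold change of -0.83 ± 0.79 and Ugt1a6a one of -0.89 ± 0.66. The Ugt1a genes are built from alternative first exons joined to common downstream exons, and 80.2% of the stretches of Ugt1a1, 53.7% of those of Ugt1a7c and 52.1% of those of Ugt1a6a are shared, so the split of reads among them is uncertain. Ugt2b35 was nearly level at 15.6, 14.8 and 12.6 CPM in the restraint samples, against 15.4, 14.3 and 14.2 CPM in the control samples. No UGT gene had groups apart or an unadjusted p under 0.05. Without control replicates 1 and 3 the log2 fold changes of all 3 Ugt1a genes were positive.

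All 7 tested sulfotransferase genes had a negative log2 fold change, with a median of -0.66. Sult1a1, the phenol sulfotransferase, held 43.0% of the summed FPKM of the family. It was at 165, 74.9 and 53.0 CPM in the restraint samples, against 389, 153 and 127 CPM in the control samples. Control replicate 1 stood far above the rest and restraint replicate 1 above control replicates 2 and 3. The log2 fold change was -1.19 ± 0.58 (edgeR adjusted p 0.345), and -0.52 without control replicate 1. Sult1b1, which sulfates thyroid hormones and small phenols, was at 182, 119 and 87.9 CPM in the restraint samples, against 247, 160 and 206 CPM in the control samples. The groups overlapped through restraint replicate 1, with a log2 fold change of -0.66 ± 0.29 (edgeR adjusted p 0.308). Sult1d1, a catecholamine sulfotransferase of mice, was at 142, 88.6 and 42.8 CPM in the restraint samples, against 221, 116 and 149 CPM in the control samples, with a log2 fold change of -0.83 ± 0.44. Sult1b1, Sult1d1 and Sult1e1 adjoin on chromosome 5. In each of Sult1a1, Sult1b1 and Sult1d1 the restraint samples stood in the same order, replicate 1 highest and replicate 3 lowest. That order was not particular to them. It also held for Sult1c2, Ugt2b34, Ugt1a7c, Ces2a and Ces2c, among others, and for the summed absorptive colonocyte markers.

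The 250 bases before the starts of Sult1a1 and Sult1d1 are shown because these genes ordered the restraint samples alike, as other members also did. Sult1a1 is at chr7:126676419-126676668 on the minus strand and Sult1d1 at chr5:87569007-87569256 on the minus strand (RefSeq, GRCm38.p6), 5′ to 3′ in the direction of the gene. Capitals mark matches to TGACNNNGC or GCGTG on either strand.
Sult1a1: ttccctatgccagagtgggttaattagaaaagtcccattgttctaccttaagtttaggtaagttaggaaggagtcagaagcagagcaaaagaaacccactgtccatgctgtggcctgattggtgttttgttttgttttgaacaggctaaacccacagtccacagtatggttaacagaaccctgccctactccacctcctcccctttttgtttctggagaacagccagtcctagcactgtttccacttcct
Sult1d1: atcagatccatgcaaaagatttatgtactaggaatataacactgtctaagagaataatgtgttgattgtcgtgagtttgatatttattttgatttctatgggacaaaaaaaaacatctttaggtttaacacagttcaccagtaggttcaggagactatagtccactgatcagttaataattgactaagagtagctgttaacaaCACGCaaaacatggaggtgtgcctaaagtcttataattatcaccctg
Sult1a1 has a match to neither, and Sult1d1 has 1 match, to GCGTG on the opposite strand.

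Sult4a1, a family member of neurons with no established substrate, differed most in ratio among the sulfotransferases. It was at 3.03, 1.53 and 2.88 CPM in the restraint samples, against 9.91, 6.09 and 4.77 CPM in the control samples. The groups did not overlap, and the log2 fold change was -1.48 ± 0.40 (edgeR adjusted p 0.215, DESeq2 adjusted p 0.0143). Markers of enteric neurons, chosen after the data were seen, differed in the same samples. They summed to 41.8 to 48.0 CPM in the restraint samples, against 89.3 to 160 CPM in the control samples. All 7 markers were lower with no overlap, against 11.2% of all genes. Their part in Sult4a1 was not tested. Sult2b1, which sulfates cholesterol, was at 23.1, 15.6 and 17.2 CPM in the restraint samples, against 42.0, 17.8 and 22.6 CPM in the control samples, and Sult1c2 at 21.4, 19.5 and 6.60 CPM in the restraint samples, against 15.2, 23.7 and 30.9 CPM in the control samples. Both groups of values overlapped, as did those of Sult6b1, which stayed under 1.78 CPM.

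The carboxylesterases divided into an abundant Ces2 group and a sparse Ces1 group. Ces2e, Ces2c and Ces2a, intestinal esterases that cleave drug esters and acylglycerols, held 29.4%, 26.9% and 26.7% of the summed FPKM of the family. Ces2e was at 155, 78.1 and 86.3 CPM in the restraint samples, against 200, 173 and 137 CPM in the control samples. Only restraint replicate 1 reached the control range, and the log2 fold change was -0.68 ± 0.28 (edgeR adjusted p 0.300). Ces2c was at 83.4, 77.4 and 57.5 CPM in the restraint samples, against 181, 60.8 and 97.5 CPM in the control samples, with a log2 fold change of -0.64 ± 0.38. Ces2a was at 128, 64.8 and 36.8 CPM in the restraint samples, against 152, 76.5 and 91.9 CPM in the control samples, with one of -0.48 ± 0.48. In both the groups overlapped, and without control replicate 1 the log2 fold changes were -0.12 for Ces2c and -0.14 for Ces2a (-0.15 without restraint replicate 3). Of their 50-base stretches, 36.1% in Ces2c and 17.3% in Ces2a occur in another gene. Ces2d-ps, annotated as a pseudogene, was at 0.674, 0.223 and 0.384 CPM in the restraint samples, against 3.69, 0.577 and 1.40 CPM in the control samples and had the most negative log2 fold change of all members, -2.13 ± 0.77 (-1.21 without control replicate 1); its groups overlapped and 76.9% of its stretches are shared. Ces2g was at 33.2, 23.7 and 34.3 CPM in the restraint samples, against 24.9, 38.5 and 51.5 CPM in the control samples, with overlapping groups, as had Ces2b and Ces2f, which stayed under 3.84 CPM.

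In the Ces1 group, Ces1d, a triacylglycerol hydrolase of liver and fat, was at 6.09, 3.89 and 4.80 CPM in the restraint samples, against 16.2, 9.12 and 21.9 CPM in the control samples. The groups were well apart, with a log2 fold change of -1.68 ± 0.36 (edgeR adjusted p 0.191, DESeq2 adjusted p 0.000673). Ces1f, a related lipid hydrolase, was at 3.83, 3.32 and 3.30 CPM in the restraint samples, against 12.7, 6.09 and 10.1 CPM in the control samples. Again all restraint values lay below all control values, with a log2 fold change of -1.47 ± 0.31 (edgeR adjusted p 0.191, DESeq2 adjusted p 0.00122). Ces1e was lower as well, at 3.74, 1.08 and 1.51 CPM in the restraint samples, against 6.19, 4.11 and 4.34 CPM in the control samples, a log2 fold change of -1.21 ± 0.50 (edgeR adjusted p 0.297). Ces1c, a secreted plasma esterase in mice, had the opposite sign, at 1.62, 2.58 and 3.68 CPM in the restraint samples, against 0.369, 1.01 and 1.55 CPM in the control samples. Its restraint values were all above its control values, with a log2 fold change of 1.42 ± 0.58, an edgeR adjusted p of 0.295 and an unadjusted p of 0.0432. Ces1g, at 3.52, 10.4 and 4.93 CPM in the restraint samples, against 3.54, 4.40 and 5.22 CPM in the control samples, and Ces1b, under 1.44 CPM in all samples, had overlapping groups. Shared stretches were few in Ces1d (1.08%) and Ces1f (0.903%). Markers of fat and liver, tissues rich in Ces1 enzymes, were also measured. The Ces1 genes summed to 18.6 to 22.2 CPM in the restraint samples, against 25.6 to 44.6 CPM in the control samples. Adipocyte markers summed to 2.84 to 5.44 CPM in the restraint samples, against 1.73 to 12.3 CPM in the control samples, with control replicate 3 the highest, as for Ces1d, and with Adipoq, Plin1 and Lep near 0. Car3 alone was at 10.05 CPM in control replicate 3. Hepatocyte markers summed to 35.1 to 50.2 CPM in the restraint samples, against 24.0 to 47.7 CPM in the control samples. Fgb, Serpina1a, Apoa1, Apoh and Cyp2e1 were each at or under 0.768 CPM in all samples, so the sum was nearly all Ttr and Alb. Their part in the Ces1 values was not tested.

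By family, then, the medians of the log2 fold changes were -0.29 for GST (13 lower, 5 higher), -0.53 for UGT (5 lower, 0 higher, Ugt2b35 changing sign by library size), -0.66 for SULT (7 lower, 0 higher) and -0.48 for CES (10 lower, 3 higher). Genes with an unadjusted p under 0.05 on the lower side numbered 6 of 18 GST, 0 of 5 UGT, 1 of 7 SULT and 5 of 13 CES genes (8.82% of all genes). On the higher side they numbered 1 CES gene and 0 in the other families (7.82% of all genes). The 5 CES genes on the lower side include the pseudogene Ces2d-ps. No test of a difference between the families was made.

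Genes that supply and regulate these enzymes were measured beside them. Of 14 genes that make, recycle, break down or use glutathione, 7 were lower and 7 higher, with a median of 0.12. At an unadjusted p under 0.05, 1 was lower (Hagh), which is 7.14%, against 8.82% of all genes. On the higher side were 2, Glo1 and the glutathione peroxidase Gpx2, named after its value was seen (14.3%, against 7.82% of all genes). These 3 genes use glutathione or its conjugates. Glo1, the glutathione-dependent glyoxalase, was at 141, 150 and 148 CPM in the restraint samples, against 119, 126 and 123 CPM in the control samples, with no overlap and a log2 fold change of 0.25 ± 0.09. Hagh, which acts after Glo1, was at 38.2, 31.0 and 34.5 CPM in the restraint samples, against 53.7, 41.0 and 41.8 CPM in the control samples, also with no overlap, and had a log2 fold change of -0.40 ± 0.15. Gclc, the rate-limiting enzyme of glutathione synthesis, was at 83.5, 73.4 and 86.0 CPM in the restraint samples, against 112, 81.6 and 104 CPM in the control samples, with overlapping groups. Among 6 other glutathione transferases, 4 were lower and 2 higher. The microsomal enzyme Mgst3 was at 297, 239 and 194 CPM in the restraint samples, against 390, 320 and 350 CPM in the control samples, with groups apart and a log2 fold change of -0.54 ± 0.17. Mgst1, also microsomal, was at 75.8, 76.8 and 75.6 CPM in the restraint samples, against 114, 87.1 and 101 CPM in the control samples, again with groups apart and a log2 fold change of -0.41 ± 0.12. The edgeR adjusted p was 0.251 for Mgst3 and 0.231 for Mgst1.

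Of 17 genes of the NRF2 system, 8 were lower and 9 higher, with a median of 0.04. The list holds NRF2, its inhibitor and its partner beside its targets, so a pooled count gives no direction of NRF2 activity. It shares some genes, Gclc among them, with the glutathione list. Nfe2l2, which encodes NRF2, was at 172, 161 and 177 CPM in the restraint samples, against 224, 182 and 155 CPM in the control samples, with overlapping groups. Keap1, its inhibitor, was at 78.0, 78.6 and 78.6 CPM in the restraint samples, against 69.4, 65.8 and 74.2 CPM in the control samples, a narrow difference with no overlap (log2 fold change 0.17 ± 0.09, edgeR adjusted p 0.361). Nqo1, a quinone reductase and a standard NRF2 target, was at 18.1, 23.1 and 18.1 CPM in the restraint samples, against 40.9, 31.2 and 24.4 CPM in the control samples. Its groups did not overlap, and the log2 fold change was -0.70 ± 0.21 (edgeR adjusted p 0.240). Mafg, a small Maf protein that pairs with NRF2, was at 36.8, 39.1 and 52.3 CPM in the restraint samples. In the control samples it was at 25.0, 27.4 and 29.2 CPM. The log2 fold change was 0.65 ± 0.16 (edgeR adjusted p 0.195, DESeq2 adjusted p 0.0242).

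Of the genes for glucuronide and sulfate donors, 7 of 8 were lower (median -0.25). Ugdh, which makes UDP-glucuronic acid, was at 134, 96.3 and 108 CPM in the restraint samples, against 289, 139 and 150 CPM in the control samples, with no overlap and a log2 fold change of -0.77 ± 0.30 (edgeR adjusted p 0.285). Bpnt1, which clears a by-product of sulfation, was at 73.9, 79.0 and 67.2 CPM in the restraint samples, against 111, 75.9 and 83.2 CPM in the control samples, with overlap. Of 12 tested deconjugating enzymes and other hydrolases, 9 were lower and 3 higher. Aadac, a microsomal deacetylase and esterase, was at 18.4, 6.41 and 6.40 CPM in the restraint samples, against 39.5, 25.1 and 22.7 CPM in the control samples. The groups did not overlap, with a log2 fold change of -1.48 ± 0.47 (edgeR adjusted p 0.250, DESeq2 adjusted p 0.0230). Arsa, the lysosomal arylsulfatase A, was at 21.5, 15.1 and 16.0 CPM in the restraint samples, against 28.8, 25.3 and 21.4 CPM in the control samples, with overlapping groups.

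Of the 32 phase I oxidation and reduction genes tested, 23 were lower and 9 higher, with a median of -0.41, and 7 (21.9%) were lower and 0 higher at an unadjusted p under 0.05, where 8.82% and 7.82% of all genes were. Cbr3, a carbonyl reductase, was at 10.1, 12.3 and 10.1 CPM in the restraint samples, against 31.1, 17.6 and 24.5 CPM in the control samples, with groups apart and a log2 fold change of -1.17 ± 0.23 (edgeR adjusted p 0.191, DESeq2 adjusted p 0.00105). Fmo2, a flavin monooxygenase, was at 8.21, 8.26 and 3.65 CPM in the restraint samples, against 20.1, 14.4 and 24.3 CPM in the control samples, also with groups apart and a log2 fold change of -1.55 ± 0.36 (edgeR adjusted p 0.195, DESeq2 adjusted p 0.00219). Cyp1a1, the standard AHR target, was scarce, at 0.245, 0.447 and 0.256 CPM in the restraint samples, against 0.848, 0.938 and 0.759 CPM in the control samples. Its restraint values were all below its control values, with a log2 fold change of -1.41 ± 0.46 (edgeR adjusted p 0.251). Of 16 nuclear receptors and regulators, 14 were lower and 2 higher (median -0.32). Nr1h4, the bile acid receptor FXR, was at 64.5, 53.3 and 40.1 CPM in the restraint samples, against 73.5, 67.3 and 79.4 CPM in the control samples, with no overlap. Ahrr, the AHR repressor, was at 1.29, 0.957 and 0.256 CPM in the restraint samples, against 2.14, 2.78 and 1.61 CPM in the control samples, and had no overlap either. Ahr, Nr1i2 (which encodes PXR) and Hnf4a, a factor of epithelial differentiation, had overlapping groups, with log2 fold changes of 0.02 ± 0.17, -0.27 ± 0.21 and -0.27 ± 0.26.

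Of 11 tested transporters of conjugates and related organic anions, 6 were lower and 5 higher. DESeq2 called 2 of them higher and 0 lower, where it called 2.26% of all genes higher and 2.94% lower. The 8 ABC exporters, which carry compounds out of the cell, were 3 lower and 5 higher, and the 3 SLCO carriers were all lower. Abcc4, which exports glucuronides, sulfates and bile acids, was at 69.9, 77.0 and 88.0 CPM in the restraint samples, against 23.4, 46.5 and 44.7 CPM in the control samples. All restraint values exceeded all control values, and the log2 fold change was 1.03 ± 0.26 (edgeR adjusted p 0.195, DESeq2 adjusted p 0.00941). Abcc2, an apical exporter of glutathione and glucuronide conjugates chosen after its values were seen, was at 17.97, 27.6 and 56.5 CPM in the restraint samples, against 2.95, 11.7 and 10.8 CPM in the control samples. The groups did not overlap, with a log2 fold change of 2.00 ± 0.62 (edgeR adjusted p 0.250, DESeq2 adjusted p 0.00892). Abcc1, which exports glutathione conjugates, was at 68.4, 76.9 and 89.0 CPM in the restraint samples, against 58.9, 59.4 and 61.1 CPM in the control samples, with a log2 fold change of 0.39 ± 0.12 and no overlap. Abcg2, an apical exporter of sulfates, had the opposite sign. It was at 59.6, 32.2 and 32.4 CPM in the restraint samples, against 102, 57.2 and 57.7 CPM in the control samples, with overlap through restraint replicate 1 and a log2 fold change of -0.81 ± 0.33.

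**Figure D5:**
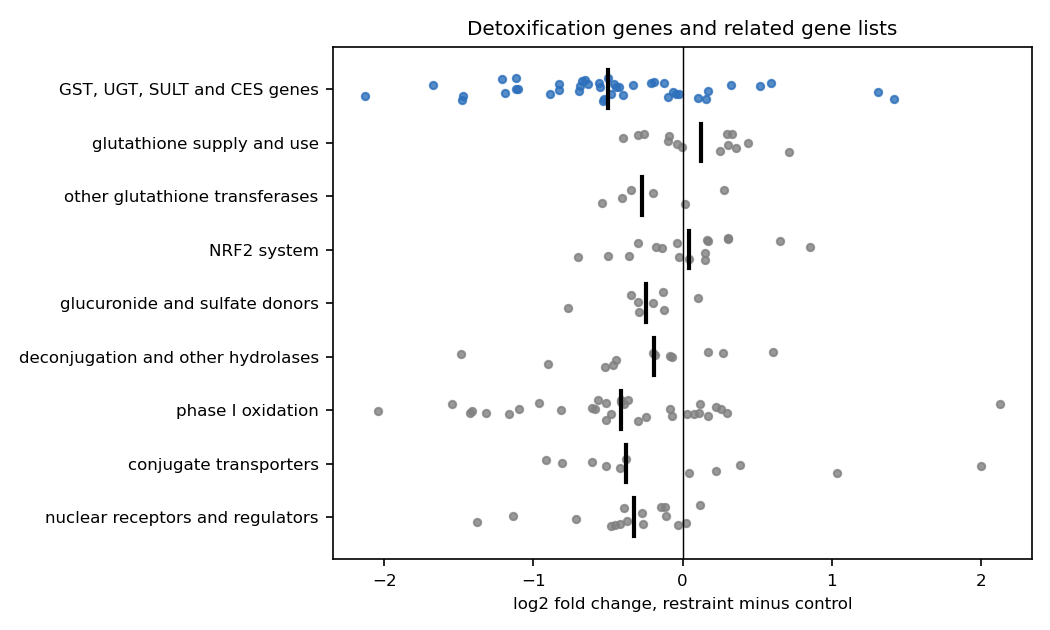
Log2 fold change (restraint minus control) of the 43 tested GST, UGT, SULT and CES genes (top row) and of the tested genes of 8 related lists, 1 point a gene, with a thick bar at each median and a line at 0. The median of the top row is -0.50, and those of glutathione supply and use and of the NRF2 system are 0.12 and 0.04.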

How the data were processed

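The authors deposited whole-number read counts per gene and, beside them, FPKM values (fragments per kilobase of transcript, scaled to depth), 1 column of each per sample, per the file headers. The build was GRCm39 and the tools included HISAT2 2.1.0, fastp 0.19.3, StringTie 1.3.4d and featureCounts 1.6.2, per the submitters' processing notes. Neither strandedness nor the handling of reads that match several genes was given in the sources used here. Overlapping and antisense genes cannot therefore be told apart.

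Counts were filtered with filterByExpr, which left 15890 of 20170 genes, scaled by TMM and tested in R 4.3.3 with edgeR 4.0.16 (quasi-likelihood, robust), restraint minus control, with Benjamini-Hochberg adjustment over all genes tested and a threshold of 0.05. The SE of a log2 fold change is its size over the root of its F statistic. DESeq2 1.42.0, limma-voom (limma 3.58.1), other scalings and filters, and leaving out samples were alternatives. A DESeq2 adjusted p is printed only for genes where it was under 0.05. The test was checked on simulated counts. The deposited FPKM values served only to compare levels between genes. No pair of libraries agreed within sampling noise (chi-square per gene of 41.3 or more). Limits from 3 counts cover counting error only. Replicates were numbered in accession order.

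The members and lists were chosen with earlier results of these data known. Named genes were the 5 members of smallest p and the 4 of highest mean FPKM in each family, the 2 of smallest p in each related list, and Nfe2l2, Keap1, Nqo1, Ahr, Cyp1a1, Nr1i2, Hnf4a, Gclc and Abcg2; other genes named were chosen after their values were seen. Promoters were the 250 bases before the RefSeq start; 50-base stretches were compared over the reference transcripts of GRCm38, which is not the build of the counts, so no gene coordinates are given apart from those of the promoters.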

Additional observations from a re-analysis of the deposited data

How the results depend on the processing

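Over the alternatives, 688 of 712 values of the 51 named genes kept their direction and their side of the threshold, 10 passed it (all under DESeq2) and 14 changed sign, in 9 genes. DESeq2 called 810 genes and 5 members, where edgeR and limma-voom called 0, and gave 2 members higher at an unadjusted p under 0.05. With any 1 sample left out, members lower at an unadjusted p under 0.05 numbered 7 (restraint replicate 3) to 16 and members higher 0 to 3, members with groups apart 10 to 19 lower (19 being 44.2%, without restraint replicate 1, where 20.6% of all genes were) and 2 to 3 higher. The medians ran from -0.45 to -0.21 for GST, -0.79 to -0.29 for UGT (-0.29 without control replicate 1), -0.90 to -0.47 for SULT and -0.74 (without restraint replicate 1) to -0.38 for CES. Among members with at least 600 counts, 11 were lower and 0 higher at an unadjusted p under 0.05. Without control replicates 1 and 3, chosen after seeing the data, 3 members were lower and 0 higher at an unadjusted p under 0.05, 16 were lower and 5 higher with groups apart (37.2% and 11.6%, against 30.01% and 29.69% of all genes), and the UGT median was 0.19. In that setting the log2 fold changes of named genes that changed sign were 0.19 for Ugt1a7c, 0.67 for Ugt1a6a, 1.58 for Ugt1a1, 0.0017 for Ugt2b35, 0.0608 for Sult2b1, 0.25 for Ces2c and 0.15 for Hnf4a. Of the other members, Gsta4 changed sign to 0.48, Gsto2 to -0.36 and Gstp2 to 0.26. By library size Ugt2b35 was at 0.0197. With any 1 sample left out it ran from -0.0834 to 0.0612 (restraint replicate 3 left out), Nfe2l2 from -0.2545 to 0.0115 and Hnf4a from -0.4455 to 0.0410 (both highest with control replicate 1 left out), and Ahr from -0.1417 (restraint replicate 3 left out) to 0.1176. The cause was not tested. No paired analysis was possible because the replicate numbers only follow accession order. At these depths 3 counts are 0.0909 to 0.110 CPM, so genes under about 1 CPM rest on few reads.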
